A study of Mus musculus with 10 samples.

Results

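The early and late parts of a GATA1 activation course were compared through the open chromatin regions that belonged to only one of them. Of 28976 regions found in 10 ATAC-seq libraries, 148 had a peak in all 6 libraries of 0, 2 and 6 h and in at most 1 of the 4 libraries of 12 and 24 h, and are called early-only. Only 21 regions showed the opposite pattern, with a peak in all 4 late libraries and in at most 1 early library, and are called late-only. The early-only regions lay mostly in introns and between genes, 101 of them (68.2%) held a GATA sequence near their centre, and at most 2 genes of any gene list examined had a start within 100 kb of them. Among the 210 ways to choose 4 of the 10 libraries, the early-only count was matched or exceeded by 12, counting the late libraries themselves, so the difference between late and early libraries did not pass the threshold (exact permutation test, one-sided, p = 0.0571, Benjamini-Hochberg adjusted p = 0.1 over 3 counts).

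G1E-ER4 is a mouse erythroid progenitor line that lacks functional Gata1 and carries GATA1 fused to the ligand-binding domain of the estrogen receptor, so β-estradiol switches GATA1 activity on. All 10 libraries share this genotype and were grown with stem cell factor and erythropoietin. The groups were untreated cells (0 h) and cells after 2, 6, 12 and 24 h in 1e-07 M β-estradiol, with 2 libraries each and about 50000 cells per library. It is a single cell line. The paper states that 2 independent ATAC-seq experiments were done over the time course. The labels do not say whether the replicate libraries came from separate cultures, so how much of their spread is technical is unknown. Promoter peaks of the erythroid genes Klf1, Nfe2 and Epor were in all 10 lists, whereas those of Slc4a1 and Alas2 were in none, that of Gata1 in 1 and that of Tal1 in 2. The promoters of the megakaryocyte marker genes Pf4, Itga2b and Gp9 had no peak in any list, and among the 4 mast cell markers only Hdc had one, in 1 list. Of 6 markers of other tissues, Pax6 had a promoter peak in all 10 lists and Col1a1 in 8.

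GATA factors bind DNA at the letters GATA with preferred bases on both sides. GATA2 acts in blood progenitors and mast cells, and GATA1 takes over at many of the same sites as red cells mature, a replacement known as the GATA switch, in which genes such as Gata2 itself are turned down. ATAC-seq uses the Tn5 transposase to insert adaptors into open DNA, so peaks mark accessible regions such as promoters and enhancers. The deposited lists give the summit of each peak, and a region here is the union of the windows of 250 bp on each side of the summits that overlap. No read counts accompany the summits, sequencing depth is therefore unknown, and where a region lacks a peak it is known only that none was called.

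The sequences below show the GATA match nearest to the mean summit, in capitals, with 25 bases on each side, read 5′ to 3′ on the strand that carries the match (mm10). The first 4 are from the 44 early-only regions that had no peak in any late list. They had the highest mean percentile of score in the early lists among these 44. All are shown as the highest-ranked examples with a match. They are named by the nearest protein-coding gene.
Xbp1 (chr11:5509731-5509786, minus strand): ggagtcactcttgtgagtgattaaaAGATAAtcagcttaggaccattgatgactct
Tmem86a (chr7:47059572-47059627, plus strand): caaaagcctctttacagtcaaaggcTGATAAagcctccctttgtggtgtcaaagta
Sptssa (chr12:54643630-54643685, minus strand): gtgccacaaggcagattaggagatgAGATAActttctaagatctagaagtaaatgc
Got2 (chr8:96296810-96296865, minus strand): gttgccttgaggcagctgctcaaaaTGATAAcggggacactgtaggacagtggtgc

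The next 3 come from the early-only regions near Gata2, Cpa3 and Gata1, chosen after their values were seen because these genes belong to the progenitor, mast cell and erythroid gene lists. All 3 matches are AGATAA and lie within 22 bp of the mean summit.
Gata2 (chr6:88226645-88226700, plus strand): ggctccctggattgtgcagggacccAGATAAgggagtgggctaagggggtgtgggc
Cpa3 (chr3:20244101-20244156, plus strand): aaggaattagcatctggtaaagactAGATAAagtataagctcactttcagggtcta
Gata1 (chrX:7971477-7971532, plus strand): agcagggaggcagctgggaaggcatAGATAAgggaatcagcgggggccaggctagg

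The last 4 are from late-only regions, with Dct, the only one without an early peak, placed first and the rest ranked by mean percentile in the late lists. The region near Mroh3 was passed over because it holds no match. The matches near Rogdi and Morn1 lie 56.2 and 47.8 bp from the mean summit, and those near Dct and Mto1 lie 211 and 395 bp away, outside the central bases that were searched for motifs.
Dct (chr14:118089055-118089110, minus strand): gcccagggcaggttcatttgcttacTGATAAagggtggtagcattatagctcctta
Rogdi (chr16:5012838-5012893, minus strand): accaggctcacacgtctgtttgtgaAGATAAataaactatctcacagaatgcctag
Morn1 (chr4:155108030-155108085, minus strand): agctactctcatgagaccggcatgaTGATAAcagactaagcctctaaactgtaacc
Mto1 (chr9:78448826-78448881, plus strand): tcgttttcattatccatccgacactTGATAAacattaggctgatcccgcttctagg

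The early lists held 11697 to 19855 peaks (median 14764, n = 6) and the late lists 10697 to 15570 (median 14622.5, n = 4), and both the largest list (6 h replicate 2) and the smallest (24 h replicate 2) bear on the counts that follow. Of all regions, 6233 (21.5%) were in every list. Early-only regions made up 0.511% of the 28976 regions and late-only regions 0.0725%, shares that depend on where the rule sets its limits. Both classes were cut from a steep slope. Of the regions in all 6 early lists, 44 had no late peak, 104 had 1, 280 had 2 and 943 had 3. Of those in all 4 late lists, 1 had no early peak, 20 had 1, 51 had 2 and 124 had 3.

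The single list in which a member was still allowed was not spread evenly. Of the 104 early-only regions with 1 late peak, 87 had it at 12 h (32 in replicate 1 and 55 in replicate 2) and 17 at 24 h (14 in replicate 1 and 3 in replicate 2). Most of the exceptions were in the 12 h lists, and 24 h replicate 2, the smallest list, held the fewest. The reason for this split was not tested. For the 20 late-only regions with 1 early peak, 14 had it in 6 h replicate 2, 3 in 2 h replicate 1, 2 in 2 h replicate 2 and 1 in 6 h replicate 1. Neither 0 h list held a late-only region. The 6 h replicate 2 list was also the largest, whereas 6 h replicate 1, of the same time, held only 1 of these peaks. The cause of this pattern was not tested.

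Each choice of 4 of the 10 libraries gives its own count of regions in all of the remaining 6 and in at most 1 of the 4, and its own count for the reverse. Over the 210 choices the early-only kind of count had a median of 37.5 and ran from 2 to 284, against 148 for the late libraries. The late-only kind had a median of 29 and ran from 0 to 211, and the observed 21 was reached or passed by 122 choices (exact permutation test, one-sided, p = 0.581). The 2 counts together came to 169, which 14 choices reached (exact permutation test, one-sided, p = 0.0667, adjusted p = 0.1).

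List size moved with these counts. All 12 choices that reached 148 had 24 h replicate 2 among their 4 libraries, and 10 of the 12 had 0 h replicate 2, the 2 smallest lists of the series. The highest count, 284, came from replicate 2 of 0, 2, 12 and 24 h, a choice of 2 early and 2 late libraries, and only 27.5% of its regions held a GATA match. When every list was reduced to its 10697 highest-scoring peaks, 74 regions met the early-only rule and 37 the late-only rule, with p = 0.0571 and p = 0.210 (exact permutation tests, one-sided). Of the 148 early-only regions 34 (23.0%) were among those 74, making up 45.9% of them, and of the 21 late-only regions 4 (19%) were among the 37 (10.8%).

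**Figure D1:**
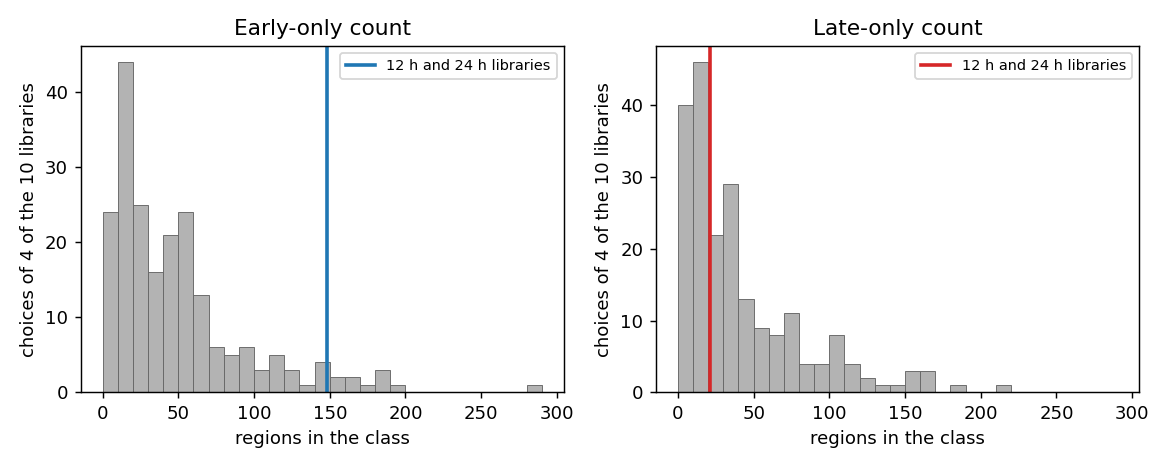
Histograms of the number of regions (horizontal axis) in the early-only and late-only classes over the 210 choices of 4 of the 10 libraries (vertical axis, choices); coloured lines mark the choice of the 12 h and 24 h libraries. The early-only line stands at 148, to the right of most choices, and the late-only line at 21, inside the bulk.

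Other forms of the count gave different answers. With no peak allowed in the other group, 44 early-only regions remained against a median of 3 over the choices, and 3 choices reached that number (exact permutation test, one-sided, p = 0.0143, adjusted p = 0.0429), whereas a single late-only region was left. When only whole time points were exchanged, which leaves 10 choices, the pair of 12 and 24 h gave the highest early-only count, followed by 128 for the pair of 0 and 24 h. That design cannot go below p = 0.1, the value found (exact permutation test, one-sided). Leaving out 6 h replicate 1 gave 278 early-only regions and passed the threshold (exact permutation test, one-sided, adjusted p = 0.0476), and leaving out 24 h replicate 2 gave 216 (p = 0.226, adjusted p = 0.339).

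GATA matches were frequent in the early-only regions. The letters AGATAA or TGATAA, on either strand, stood in the central 200 bp of 101 of 148 regions (68.2%), against 31.8% of the 2409 other regions found in 6 or 7 lists, 12.2% of the 6233 regions in every list and 27.2% of all regions. Their position differed as well, since few early-only regions were promoters, defined as lying within 1 kb of a protein-coding transcript start. Outside promoters, 95 of 126 early-only regions (75.4%) held a match, against 45.7% of the others in 6 or 7 lists and 44.8% of those in every list. At promoters, 6 of 22 did, against 9.32% and 4.35%.

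Each choice of 4 libraries selects its own regions, so the GATA share could be set against the 210 choices. Their median share was 29.6%, and 4 choices, the observed one included, reached 68.2% (exact permutation test, two-sided, p = 0.0381). Adjusted over 8 shares and means the value was 0.152, so the share did not pass the threshold. The other 3 choices that reached it gave 7, 59 and 39 regions, all fewer than 148. Restricted to regions outside promoters, the choices had a median of 46.9% against 75.4% observed (exact permutation test, two-sided, p = 0.125, adjusted p = 0.5).

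**Figure D2:**
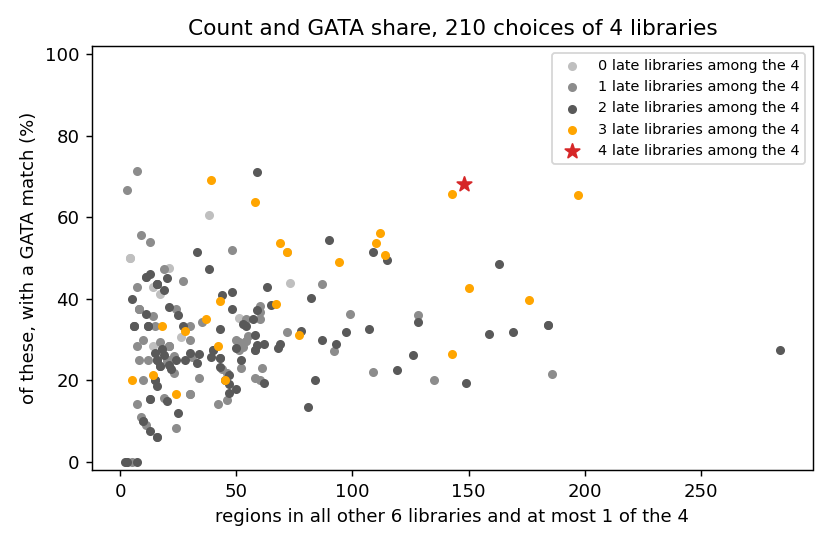
Each point is 1 of the 210 choices of 4 libraries; the horizontal axis gives the regions in all other 6 libraries and at most 1 of the 4, the vertical axis the percentage of them with a GATA match, and colours give the number of late libraries among the 4. The star for the 12 h and 24 h libraries lies at 148 regions and 68.2%, and the choice with the highest count, 284, lies at 27.5%.

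Matches gathered at the centre of the regions. In 50 bp bins, the bin just left of the centre held a match in 36.5% of early-only regions and the bin at its right in 24.3%, and the share fell to 6.08% and 5.41% in the outermost bins. In the other regions of 6 or 7 lists the 2 central bins stood at 11.5% and 11.9%, and in regions of every list at 3.98% and 4.46%. Over their full width, 132 of the 148 early-only regions held at least 1 match, 106 at least 2 and 64 at least 3, with a maximum of 7. No full-width count was made for regions outside the 2 classes, so these numbers have no background share. A composite of CTG, 7 or 8 further bases and a GATA match, the arrangement bound by TAL1 together with GATA1, was in the central 200 bp of 31 early-only regions (20.9%), against 8.34% of the others in 6 or 7 lists and 5.0% of all regions. Every composite match contains a GATA match and is counted under both.

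**Figure D3:**
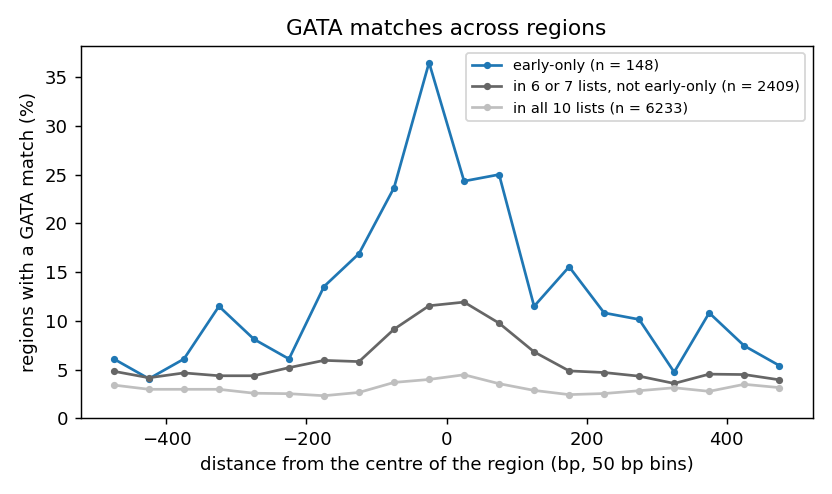
Percentage of regions with a GATA match (vertical axis) in 50 bp bins by distance from the centre of the region (horizontal axis, bp), for early-only regions, other regions in 6 or 7 lists and regions in all 10 lists. The early-only line peaks at 36.5% next to the centre, above 11.9% and 4.46% in the other sets.

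The ETS, RUNX, AP-1 and E-box motifs stood closer to their shares in the other regions of 6 or 7 lists. AGGAAG or CGGAAG, the core of ETS factors, was in 35.1% of early-only regions and 36.5% of the others in 6 or 7 lists. The RUNX letters TGTGGT were in 20.9% against 15.9%, the AP-1 letters TGANTCA in 8.78% against 6.56%, and the E-box CAGCTG or CAGATG in 28.4% against 26.4%. The KLF letters CCNCNCCC were in 20.9% against 36.1%, and in 55.5% of the regions found in every list, which are mostly promoters. The CTCF motif was in 3 early-only regions (2.03%) and in 4.86% of the comparison set. Against other choices its share did not pass the threshold (exact permutation test, two-sided, p = 0.848). With only 3 regions behind it, that test cannot show that the shares are alike. Both strands of the central 200 bp were searched for each motif.

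The early-only regions were placed away from gene starts. Of the 148, 22 were promoters, 3 exonic, 68 intronic and 55 intergenic, and 42 (28.4%) lay over 50 kb from any protein-coding start, against 11.5% of the other regions in 6 or 7 lists. Their promoter share of 14.9% compared with a median of 43.9% over the 210 choices (exact permutation test, two-sided, p = 0.0476, adjusted p = 0.152). Their GC content averaged 48.9% ± 10.1 (SD, n = 148 regions), against a median of 56.3% over the choices (exact permutation test, two-sided, p = 0.0571, adjusted p = 0.152). They were scattered over chromosomes 1 to 19 and X, with at most 14 on any of them, and a single pair, near Pi4k2b and Sepsecs on chromosome 5, lay within 100 kb of each other.

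The score of a peak is −log10 of its q-value in its own list. It is not scaled between libraries, so the rank of a peak within its list is also given as a percentile, with 100 for the highest score. The median early-only region stood at percentile 50.2 and 43.8 in the 0 h lists, 38.0 and 41.3 in the 2 h lists and 33.7 and 53.9 in the 6 h lists. For the other regions in 6 or 7 lists, where they had a peak, the medians were 35.8 and 29.9 for the 0 h lists, 39.0 and 32.0 for the 2 h lists, and 35.5 and 45.1 for the 6 h lists. The early-only regions ranked higher than these in both 0 h lists, and higher in only 1 of the 2 lists at 2 h and at 6 h. Between 0 and 6 h the mean percentile was lower in 80 of 148 early-only regions (54.1%). The same was true of 36.1% of the 1223 regions in all early lists and 8 or 9 lists in total, and of 32.8% of those in every list. The early-only regions were chosen for having few peaks afterwards, so these shares are given as a description.

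The 10 early-only regions with the highest mean percentile among the 44 with no late peak had scores from 2.52 to 15.1 in the early lists. All 10 held a GATA match somewhere, with 1 to 5 matches each, though this full-width count has no background share. In 9 of the 10 a match stood in the central 200 bp. Over the full width of the regions, the composite was in 5 of them, again without a background share. The region near Xbp1, which encodes a transcription factor of the unfolded protein response, lay at chr11:5509359-5510102, 10.6 kb from the nearest start and between genes. Its score was 6.91 at the lowest (2 h replicate 2), 8.81 at the median and 13.1 at the highest (0 h replicate 1), and no late list had a peak there. Both 0 h scores, 13.1 and 9.25, were above those at 2 and 6 h, but scores are not scaled between libraries. Ranked by percentile, 0 h replicate 1 was still the highest (87.0), whereas 0 h replicate 2 (67.7) was not above every later early list. It ranked below 2 h replicate 1 (74.2) and 6 h replicate 1 (76.0), yet above 2 h replicate 2 (49.8) and 6 h replicate 2 (52.0).

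The region near Tmem86a, at chr7:47059312-47059878, lay 8.71 kb from its start and scored 5.93 to 15.1 with a median of 6.56. The region near Sptssa, which encodes a small subunit of serine palmitoyltransferase, lay at chr12:54643336-54643999 and scored 3.06 (6 h replicate 1) to 13.7 (0 h replicate 1) with a median of 9.97. The region nearest to Got2, the mitochondrial aspartate aminotransferase, lay 408 kb from it at chr8:96296477-96297173 and scored 4.50 to 10.1 with a median of 7.29. It held 5 GATA matches, the most among these 10, and its distance leaves the gene it belongs to unknown.

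The remaining 6 were nearest to 4930544G11Rik, Unc13b, Prorsd1, Bckdhb, Gemin6 and Prim2. Their median scores ran from 6.30 (Gemin6, a component of the SMN complex) to 10.5 (Prorsd1). Those near Unc13b, Prorsd1, Bckdhb (a subunit of the branched-chain keto acid dehydrogenase) and Prim2 (a DNA primase subunit) were intronic. In 6 of the 10, the lowest early score was in a 6 h list. It was in replicate 1 near Sptssa, 4930544G11Rik, Unc13b, Prorsd1 and Prim2, and in replicate 2 near Bckdhb. The highest early score was in 6 h replicate 2 near Tmem86a and Gemin6. Among early lists, 6 h replicate 1 had the lowest median score (5.77) and 6 h replicate 2 the highest (7.68).

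**Figure D4:**
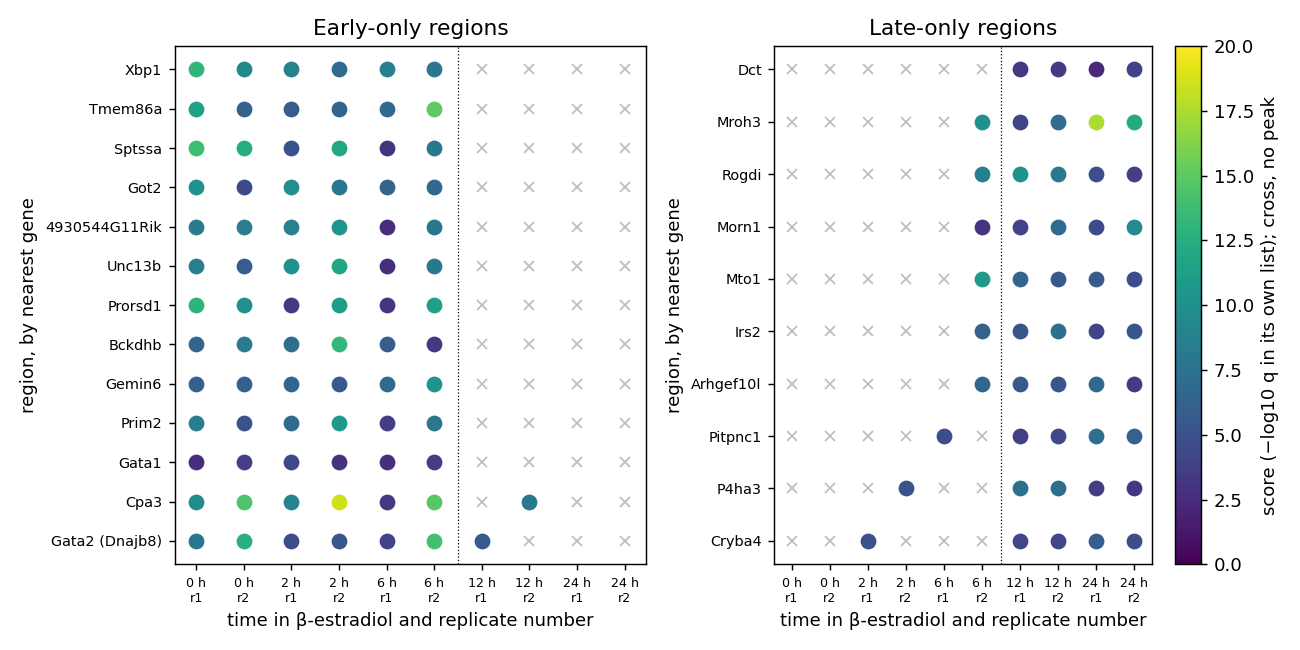
Scores (−log10 q, colour) of named regions (rows, by nearest gene) in the 10 libraries (columns, time in β-estradiol and replicate); a cross marks no peak and the dotted line separates early from late libraries. The Xbp1 region scores 6.91 to 13.1 in the early libraries and has no late peak, the Cpa3 region keeps a peak in 12 h replicate 2, and most late-only regions keep one in 6 h replicate 2.

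Among the genes known for the progenitor state, Gata2 had an early-only region 27.9 kb from its nearest start, at chr6:88226279-88227025. This region was intronic, with Dnajb8 as the gene of the nearest start. It held 2 GATA matches and scored 4.14 (6 h replicate 1) to 14.1 (6 h replicate 2) in the early lists, with a median of 6.59. The only late peak there was in 12 h replicate 1, with a score of 5.66, so its last call fell within the range of the early scores. Cpa3, which encodes the mast cell carboxypeptidase A, had an intergenic early-only region at chr3:20243798-20244445, 1.62 kb from its start, with 3 GATA matches. It scored 3.41 (6 h replicate 1) to 18.6 (2 h replicate 2) with a median of 12.1, and 8.09 in 12 h replicate 2, and neither 24 h list had a peak. Both genes are also in the study's set of captured repressed promoters, where 2 of 19 genes had an early-only region within 100 kb, against 2.86% of all genes. That set was chosen from expression in the same course and is not independent of it.

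Gata1 had an early-only region with no late peak at chrX:7971157-7971879, in an intron and 3.25 kb from the nearest start, with 3 GATA matches. Its scores were low, from 2.54 (0 h replicate 1) through a median of 3.18 to 4.40 (2 h replicate 1), and it ranked last of the 44 with no late peak. Plek, which encodes the platelet protein pleckstrin, had an intronic early-only region 1.76 kb from its start that scored 2.53 to 11.7 with a median of 7.82 in the early lists, and 5.99 in 12 h replicate 2. The Plek region held 2 GATA matches. Add2, a membrane skeleton protein of red cells, had an intronic early-only region that also had a peak in 1 late list. Its early scores were 3.61 to 14.7 with a median of 10.8.

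In the heme pathway, the promoters of Alad and Uros, which encode the enzymes that form porphobilinogen and uroporphyrinogen III, were early-only. The Alad promoter region scored 2.88 to 8.39 in the early lists with a median of 4.56, and 3.33 in 12 h replicate 2. The Uros promoter region scored 3.29 to 5.75 with a median of 4.50 in the early lists, and 9.19 in 24 h replicate 1, above all 6 early scores. The other 3 late lists had no peak at the Uros promoter.

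The 22 early-only promoters also included those of Rec8, Asic4 and Slc37a3, which had no late peak, and of Pomp, Cd200r3, Lemd2, Ica1, Cpsf6, Nsf, Emc3, Wdr81, Nup35, Fdx1, Spred1, Srrt, Atxn7l1, Nkiras2, Supt16, Tmem248 and Mocs2, which had 1. The Cd200r3 promoter, of a receptor found on basophils and mast cells, held a GATA match and scored 4.72 to 13.0 with a median of 8.40. The highest percentiles of the whole class belonged to regions that kept a peak in 12 h replicate 2, named here after their values were seen. They were nearest to Vwc2l (mean percentile 82.9, median score 15.7), Nxpe2 (78.4 and 11.4) and Acot4 (78.0 and 15.6), and all 3 held a GATA match.

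Over all genes, 491 of 17151 (2.86%) had an early-only region within 100 kb of a start and 74 (0.431%) a late-only region. For early-only regions the counts were 2 of 22 heme and iron genes (Alad, Uros), 2 of 21 red cell membrane genes (Add2, Piezo1), 1 of 17 erythroid transcription factor genes (Gata1) and 1 of 23 progenitor transcription factor and receptor genes (Gata2). They were 2 of 22 mast cell and basophil genes (Cpa3, Gata2), 1 of 17 megakaryocyte and platelet genes (Plek), 1 of 17 cell cycle genes (E2f2) and 1 of 14 lymphoid and macrophage genes (Lyz2). None of 10 globin genes, 20 genes of erythropoietin signalling and survival, and 8 genes of other tissues had one. In the study's set of captured activated promoters, 1 of 22 genes did (Fam214b, through the region near Unc13b). With at most 2 genes in any list, these counts are too small to be read against the background share.

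The late-only regions were few. Only the region nearest to Dct, which encodes an enzyme of melanin synthesis, had no early peak. It lay between genes at chr14:118088760-118089689 and scored 3.16 and 3.31 at 12 h and 2.27 and 3.91 at 24 h. Its mean percentile was 9.51, so it was among the lower peaks of the late lists. The median late-only region stood at percentile 26.0 and 29.8 in the 12 h lists and 38.1 and 10.9 in the 24 h lists. The other regions in 4 or 5 lists stood at 30.2 and 23.4 and at 32.6 and 21.2, so the late-only regions were above them in 2 of the 4 lists and below in the other two.

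The next late-only regions by percentile, named after their values were seen, each had 1 early peak. The region near Mroh3, at chr1:136179395-136180041, scored 4.08 and 7.03 at 12 h, 17.5 and 12.3 at 24 h and 10.2 in 6 h replicate 2. Both its 24 h scores exceeded its 6 h score and both its 12 h scores were below it. The promoter region of Rogdi scored 10.3 and 7.99 at 12 h, 4.84 and 3.84 at 24 h and 8.45 in 6 h replicate 2. The regions near Morn1, Mto1, Irs2 (a substrate of the insulin receptor), Arhgef10l, Pitpnc1, P4ha3 and Cryba4 followed, with mean percentiles from 42.5 down to 31.4.

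Of the 13 gene lists, only the heme and iron genes and the captured activated promoters had a gene near a late-only region, in both cases Hebp1, which encodes a heme-binding protein. The region lay 28.3 kb from its start, at the promoter of Fam234b. It scored 3.21 and 6.02 at 12 h, 3.54 and 2.89 at 24 h and 4.36 in 6 h replicate 2, so the early score lay inside the late range. It held 2 GATA matches.

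A GATA match was in the central 200 bp of 12 of 21 late-only regions (57.1%) and the composite in 6 (28.6%), against 35.3% and 7.15% of the 3064 other regions in 4 or 5 lists. The median GATA share over the choices that gave such regions was 31.6% (exact permutation test, two-sided, p = 0.124, adjusted p = 0.249). Promoters were 5 of the 21 (23.8%), and this share, the CTCF share of 4.76% and the mean GC content of 51.2% all had adjusted p-values of 0.796 or more in the same test. With 21 regions these shares are imprecise.

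Choosing regions on one replicate number and reading them in the other gave a test in libraries that the choice had not used. The 344 regions in all 3 early and neither late list of replicate 1 had a peak in 58.4%, 62.8% and 86.0% of cases at 0, 2 and 6 h of replicate 2, and in 52.6% and 27.9% at 12 and 24 h. The early and late shares did not overlap, and p was 0.2, the smallest that 5 libraries can give (exact permutation test, two-sided). Relative to the share of all regions in the same list, these were 1.49, 1.31 and 1.3 times as frequent at 0, 2 and 6 h, and 1.14 and 0.778 times at 12 and 24 h. The 526 regions chosen on replicate 2 had a peak in 70.5%, 63.7% and 46.0% at 0, 2 and 6 h of replicate 1, and in 46.0% and 35.4% at 12 and 24 h (exact permutation test, two-sided, p = 0.4). Relative to all regions these were 1.4, 1.21 and 0.982 times as frequent at 0, 2 and 6 h, and 0.907 and 0.694 times at 12 and 24 h, so the 6 h list stood below the share of all regions. In both cases the 24 h list had the lowest share. With lists of equal size, the early share minus the late share went from 28.8 to 9.98 percentage points for regions chosen on replicate 1, and from 19.4 to 19 for those chosen on replicate 2.

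Late-only regions chosen in the same way differed in direction between the replicate numbers when the full lists were used. The 426 chosen on replicate 1 were present in 8.45%, 20.4% and 46.0% at 0, 2 and 6 h of replicate 2, and in 22.8% and 13.8% at 12 and 24 h, so their mean share was 25% ± 19.2 (SD, n = 3) in the early and 18.3% ± 6.31 (SD, n = 2) in the late libraries (exact permutation test, two-sided, p = 1). The 68 chosen on replicate 2 were present in 25%, 42.6% and 38.2% at 0, 2 and 6 h of replicate 1, and in 45.6% and 50.0% at 12 and 24 h (exact permutation test, two-sided, p = 0.2). With lists of equal size both were more frequent in the late libraries, with early minus late at -5.82 and -8.04 percentage points (exact permutation tests, two-sided, p = 0.4 and 0.2).

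**Figure D5:**
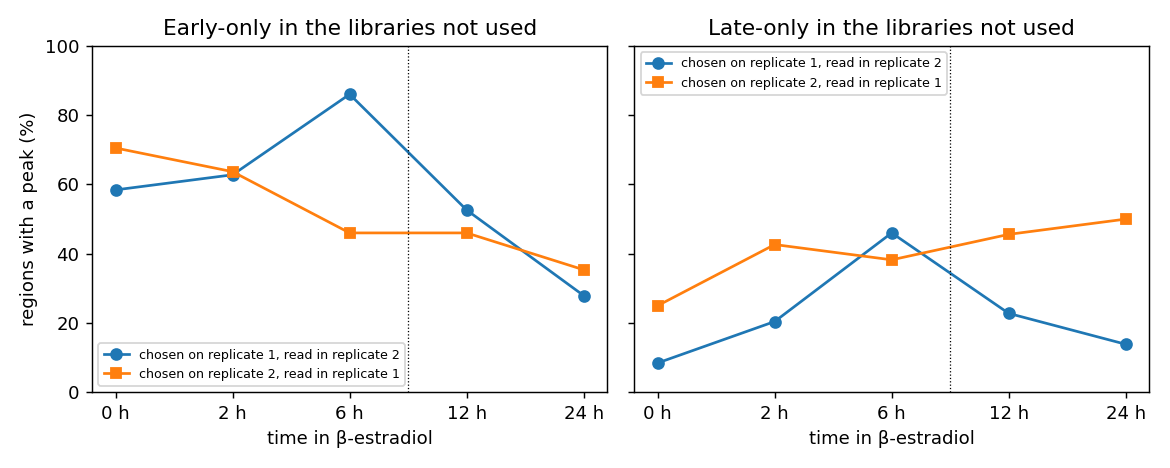
Percentage of regions with a peak (vertical axis) by time in β-estradiol (horizontal axis) in the 5 libraries not used to choose them, for early-only (left) and late-only (right) regions; the dotted line separates early from late. Early-only shares end at 27.9% and 35.4% at 24 h, their lowest values, and late-only shares peak at 46.0% (6 h) in one case and 50.0% (24 h) in the other.

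The 10 pairs of time points show where the 12 and 24 h pair stands. Set against the other 3 time points, the pair of 0 and 2 h had 72 regions in all 4 of its lists and at most 1 of the other 6, and 81.9% of them held a GATA match, the highest share among the pairs in that direction. The reverse, regions in all 6 lists of 6, 12 and 24 h and at most 1 list of 0 and 2 h, also gave 72, with a GATA share of 51.4%. The pair of 6 and 24 h gave 59 regions in all lists of the other time points and at most 1 of its own, with a GATA share of 71.2%, close to the 68.2% of the 12 and 24 h pair. Pairs that mix 2 and 12 h, or 0 and 12 h, gave 16 and 54 such regions with shares of 6.25% and 33.3%. All 10 pairs share libraries with each other, and these values are given side by side without a test.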

How the data were processed

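ATAC-seq peak summits of 10 libraries of G1E-ER4 cells were used, 2 at each of 5 time points, grouped by sample title. The authors trimmed adaptors, aligned reads to mm10, kept uniquely mapped reads and called peaks per library with MACS, fragment model switched off. The aligner is Bowtie2 in the methods and Bowtie 1.0.0 in the submitters' processing notes, and which of them made the lists is not settled. No Tn5 shift is stated, which leaves summits uncertain by some bases. The deposited score is −log10 of the q-value, with a lowest value of about 1.3, and the deposited lists hold no counts or depth, so no counting interval is given.

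Summits on chromosomes 1 to 19 and X were extended 250 bp on each side and merged across lists when sharing at least 1 bp (Python 3.11.15, numpy 2.4.6, pandas 2.3.3). Regions were annotated with GENCODE M21 on GRCm38 patch 6, the same build as mm10, and sequences were read from the RefSeq copy of that assembly. Counts and shares were tested by exact permutation over the 210 ways to choose 4 of the 10 libraries, counts one-sided and shares and means two-sided by doubling the smaller tail, with Benjamini-Hochberg adjustment over 3 counts and over 8 shares and means and a threshold of 0.05. Named regions were the 10 per class, in no list of the other group, with the highest mean percentile, and genes of the fixed lists within 100 kb of a member. Late-only regions gave only 1 such region. The code was tested on simulated lists. The members and lists were chosen with earlier results of these data known. The alternatives covered list size, score threshold, window, tolerance, motif window, promoter distance, replicate number, whole time points and leaving out each library. Members on chromosome 18 were counted but their sequences are not shown.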

Additional observations from a re-analysis of the deposited data

Results flagged for a closer look

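Dixon's test at the 95% level was applied to 29 groups of 4 or 6 values, where chance flags about 1 in 20, and 4 values stood apart. In the early group, 6 h replicate 2 held 14 late-only regions, against 0 to 3 in the other 5 early lists, and it was also the largest list. In the late group, the early-only regions still present in 24 h replicate 2 had a median percentile of 12.4, against 32.7 to 36.6 in the other 3 late lists, and this value rests on 3 regions. The score of the early-only region near 4930544G11Rik was 2.52 in 6 h replicate 1, below 7.85 to 10.4 in the other 5 early lists. The score of the early-only region near Gemin6 was 10.3 in 6 h replicate 2, above 5.50 to 6.73 in the others.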

How the results depend on the processing

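In the main setting, no count or share passed the threshold over all 210 choices, and none that passed in another setting had the opposite direction there. The cause of these differences between settings was not tested. With the replicate block, 100 choices that take 2 libraries of each replicate number, the 148 early-only regions and the 169 of both classes passed (exact permutation tests, adjusted p = 0.045 and 0.03). The replicate numbers do not pair the libraries by the criterion used: replicate deviations in presence correlated at 0.021 to 0.0908 between time points, none of 10 pairs over 0.1, although all 10 were positive, so the deviations correlated more between libraries of the same number than of different numbers, a hint from the data and not from the design. Lists of equal size gave 37 late-only, 74 early-only and 111 regions together, and the late-only difference in the libraries not used for the choice (chosen on replicate 1, early minus late) turned from 6.65 to -5.82 percentage points without a call in either. Allowing no peak in the other group gave 1, 44 and 45 regions, the last 2 past the threshold (exact permutation tests, adjusted p = 0.0429 each). Allowing 1 missing peak in the own group gave 175, 496 and 671, none past it. In settings added after seeing the data, regions outside promoters gave 126 early-only regions and 142 together (exact permutation tests, adjusted p = 0.0357 each), and with the replicate block the early-only and joint counts passed for equal lists (74 and 111, beside 37 late-only) and for no peak in the other group (44 and 45, beside 1 late-only). Score threshold, summit window, motif window, promoter distance and whole time points changed no call, and no region count by over 1.5 times, but with promoters taken within 2.5 kb the early-only promoter share went from 14.9% to 23.0%.

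Leaving out each library in turn gave 158 to 347 early-only, 24 to 91 late-only and 215 to 405 regions together, higher by construction since fewer lists must meet the rule. Without 6 h replicate 1, the early-only count was 278 and the joint count 318 (exact permutation tests, adjusted p = 0.0476 each). The early-only GATA share ran from 54.4% to 70.9%, the promoter share from 12.9% to 31.9% and the mean GC content from 47.7% to 52.7%, and without 6 h replicate 2 these 3 passed at 70.3%, 14.6% and 48.6% (exact permutation tests, adjusted p = 0.0423 each). Counts also moved by over 1.5 times without 0 h replicate 2 (226 early-only), 12 h replicate 1 (327 and 46 late-only), 12 h replicate 2 (347 and 58) and 24 h replicate 1 (261 and 43), and for late-only regions without 2 h replicate 1 (41), 2 h replicate 2 (32), 6 h replicate 1 (40), 6 h replicate 2 (60) and 24 h replicate 2 (91). Unknown depth limits all counts.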
